A study of Mus musculus with 6 samples.

Results

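The arrays were examined for 9 genes, namely the DNA methyltransferase genes Dnmt1, Dnmt3a and Dnmt3b, their partners Dnmt3l and Uhrf1, the dioxygenase genes Tet1, Tet2 and Tet3, and the glycosylase gene Tdg. They were chosen by symbol, as the enzymes that place folate-derived methyl groups on DNA or take them off. All probe sets that the array annotation gives to exactly 1 of these symbols were used, which made 20 of 45101 probe sets and 8 of 18194 genes. Tdg had no probe set of its own, because the 3 probe sets that carry its name are also assigned to its processed pseudogenes Tdg-ps and Tdg-ps2.

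Whole mouse embryos at embryonic day 9.5 were profiled, 1 embryo per Affymetrix array, as 3 pairs of littermates from 3 litters. Each pair held an RFC1-/- embryo, nullizygous for the reduced folate carrier and labelled with craniorachischisis (an open brain and spinal cord) and an unfused chorioallantois, and an RFC1+/+ embryo labelled normal in both. The targeted allele came through germline chimeras, so all tissues carry it, and had been moved from a C57BL/6J hybrid stock onto the inbred SWV background. All dams of both groups received folic acid subcutaneously, 25 mg/kg daily from the start of pregnancy, so no embryo without folate supplementation enters the comparison.

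In mammals the methyl group of 5-methylcytosine comes from S-adenosylmethionine, which is rebuilt from homocysteine with a methyl group that folate carries. Dnmt1 copies methylation onto the new DNA strand after replication, and Uhrf1 brings it to hemimethylated sites. Dnmt3a and Dnmt3b methylate unmethylated DNA, and Dnmt3l is their cofactor without catalytic activity in germ cells and early embryos. The Tet enzymes oxidize 5-methylcytosine with 2-oxoglutarate as co-substrate, and Tdg excises the more oxidized forms so that base excision repair can restore cytosine. The arrays measured the mRNA of these genes, and neither DNA methylation nor folate was measured.

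Slc19a1, which encodes RFC1, was the targeted gene. On its brightest probe set it measured 9.11, 9.10 and 8.89 (RFC1+/+, litters 1 to 3) and 9.97, 10.10 and 9.84 (RFC1-/-), in log2 units. The sources used here do not name the deleted part of the gene, so this higher signal checks no genotype. Xist, the X-inactivation RNA of female cells, was at 12.42 in RFC1+/+ litter 2 and 12.38 in RFC1-/- litter 3 and at most 5.66 in the other 4 embryos. Litter 1 is therefore the single pair of the same sex, and values within it are given beside the results. Array medians lay between 5.43 and 5.49, and no array stood apart (correlations 0.984 to 0.996).

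Differences between the genotypes were small for these genes. The largest difference of any of the 20 probe sets was 0.50 on the log2 scale, on Uhrf1, which was 1.42-fold lower in RFC1-/- embryos. Members of the maintenance machinery, Dnmt1 and Uhrf1, had lower values in RFC1-/- embryos on all 5 of their probe sets, with no overlap between the groups. Tet2 had higher values on both of its probe sets, again without overlap. Dnmt3a, Dnmt3l and Tet3 overlapped between the groups, as did Dnmt3b, whose values were higher within each litter.

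In limma with the litter as a block, 0 of 20 probe sets reached a Benjamini-Hochberg adjusted p of 0.05 over all probe sets (smallest adjusted p = 0.0610, Tet2), and the random-variance paired test of the methods also called 0. Over the whole array 1241 probe sets did (2.75%; 129 without litter 1), of which 1.87% were higher and 0.882% lower in RFC1-/- embryos. At an unadjusted p of 0.05 in limma the count was 8 of 20, beside 15.1% of all probe sets. Of these 8, 5 were lower (background 7.26%) and 3 higher (background 7.8%). They belonged to Dnmt1, Uhrf1, Tet1 and Tet2 only, and probe sets of the same gene are not separate results. Without litter 1 the count was 5 of 20, beside 9.19% of all probe sets. The RFC1-/- embryos all lay below the RFC1+/+ embryos on 5 probe sets (background 11.5%) and all above them on 2 (background 9.81%). Values were lower in 3 of 3 litters on 7 probe sets (background 19.7%) and higher in 3 of 3 on 5 (background 15.8%). The median difference was -0.06, and over all probe sets it was -0.02. The methods' filter, which keeps probe sets with an array at least 1.5-fold from the median, kept 5 of the 20 (background 6.61%), namely both of Uhrf1, 1 of Dnmt3a and 2 of Tet1. With 1 value per gene, from the brightest probe set, 1 of 8 member genes passed at 0.05 after adjustment, Tet2, which was higher. Of all 18194 genes 968 did (5.32%; 355 without litter 1), 3.67% higher and 1.65% lower in RFC1-/- embryos.

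**Figure D1:**
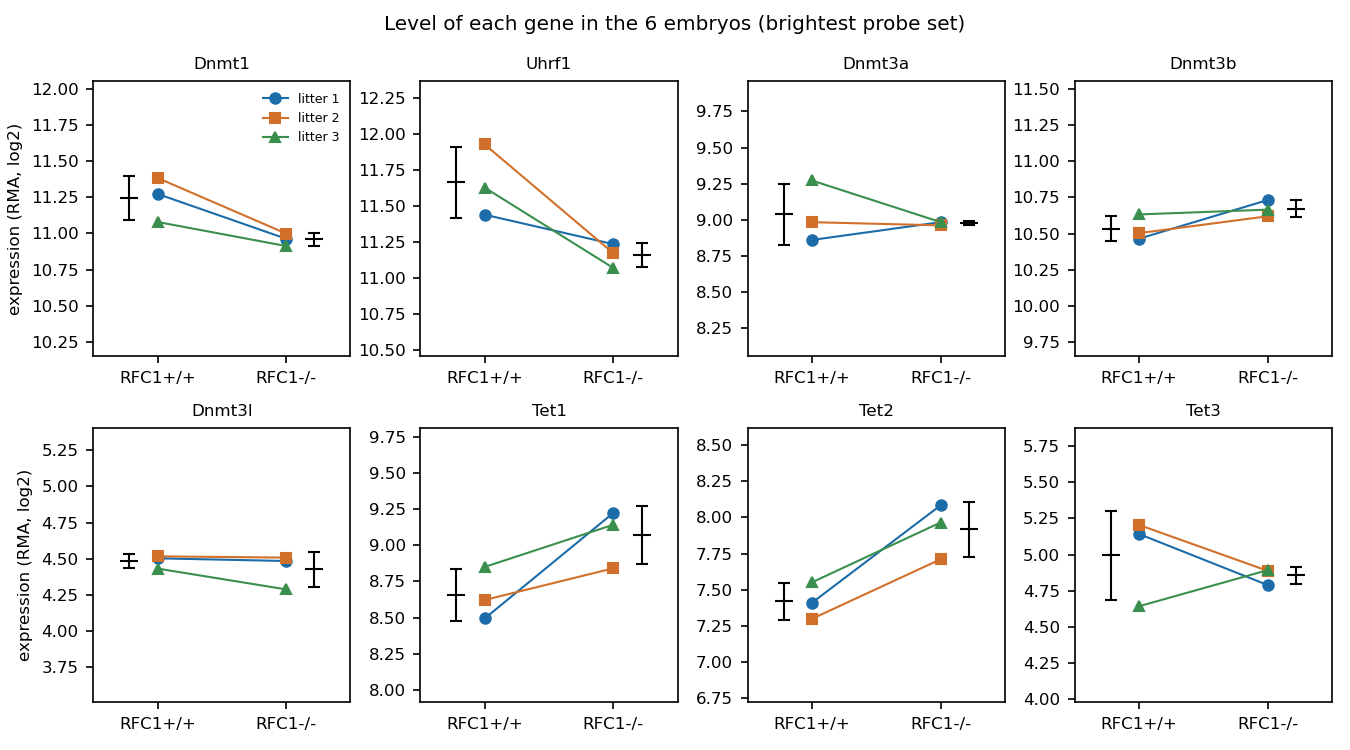
Log2 expression of the 8 measured genes, each on its brightest probe set, in RFC1+/+ and RFC1-/- embryos; coloured lines join littermates and black bars give the mean and SD of 3 embryos. Dnmt1 and Uhrf1 lie lower and Tet2 and Tet1 higher in each RFC1-/- embryo than in its littermate, and Dnmt3l and Tet3 lie near or under 5.17, the level of silent receptor genes.

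Not all members were measurably expressed. The 95th percentile of the mean levels of 80 olfactory and vomeronasal receptor probe sets, genes that should be silent in an embryo, was 5.17, and 16 of the 20 probe sets were above it. Dnmt3l, Tet3 and 2 of the 4 Tet1 probe sets were at or under it. Levels of different genes depend on their probes and are not ranked here.

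The maintenance pair is described first. Dnmt1 was read by 3 probe sets. On the brightest, 1435122_x_at, the RFC1+/+ embryos measured 11.27, 11.38 and 11.08 and the RFC1-/- embryos 10.96, 10.999 and 10.91, here and below in the order of litters 1 to 3. The groups did not overlap, but the highest RFC1-/- value was 0.08 below the lowest RFC1+/+ value. Dnmt1 was 1.22-fold lower there (log2 difference -0.29, standard error 0.10, 95% interval -0.52 to -0.05, adjusted p = 0.226 in limma). On 1422946_a_at the RFC1+/+ values were 10.95, 11.01 and 10.97 and the RFC1-/- values 10.72, 10.67 and 10.61. Here the groups were farthest apart of the 3 Dnmt1 probe sets, by 0.23, with a difference of -0.31 (standard error 0.10, adjusted p = 0.175 in limma). The third, 1447877_x_at, gave 9.67, 9.68 and 9.34 against 9.28, 9.23 and 9.23, a difference of -0.32 (standard error 0.11, adjusted p = 0.224 in limma). Probe sets whose names end in x_at hold probes that can match other sequences, which applies to 2 of these 3. Within the same-sex pair of litter 1 the 3 differences were -0.31, -0.23 and -0.39.

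Uhrf1, which recruits Dnmt1 to replicated DNA, was read by 2 probe sets. On 1415810_at the RFC1+/+ embryos measured 11.44, 11.93 and 11.63 and the RFC1-/- embryos 11.24, 11.17 and 11.07. All RFC1-/- values were below all RFC1+/+ values, and the 3 litters differed by -0.20, -0.75 and -0.56. The mean difference was -0.50 (standard error 0.13, 95% interval -0.81 to -0.20, adjusted p = 0.103 in limma). The call depended on the variance model, since with an intensity trend in the variance the adjusted p was 0.0466. On 1415811_at the RFC1+/+ values were 8.41, 8.33 and 8.39 and the RFC1-/- values 8.14, 8.08 and 7.49. Its mean difference was -0.48 (standard error 0.15, adjusted p = 0.176 in limma), and litter 3 carried the greater part of it with -0.91. The probe sets thus differed in the litter with the greatest difference, litter 2 on the first and litter 3 on the second. In the same-sex litter 1 they differed by -0.20 and -0.27.

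Dnmt1 and Uhrf1 are both transcribed most in S phase, and 22 of 23 listed replication and proliferation genes were measured with them. None of the 22 passed the test in either direction, while 2 were lower at an unadjusted p of 0.05 in limma. The median difference of the list was -0.10, beside -0.01 over all genes, and 18 of 22 means were below 0. The mean level of the list was 11.29 to 11.37 in RFC1+/+ and 11.15 to 11.25 in RFC1-/- embryos. Gins1, a subunit of the replicative helicase complex, differed by -0.53 (adjusted p = 0.0511 in limma over all genes). Tyms, thymidylate synthase, which makes thymidylate with a folate cofactor, differed by -0.45 (adjusted p = 0.0592 in limma over all genes). Pcna, the sliding clamp to which Dnmt1 binds, differed by -0.07, and Hells, a chromatin remodeller needed for DNA methylation, by -0.18. Whether these levels have a part in the Dnmt1 and Uhrf1 values was not tested.

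A promoter sequence is shown for Dnmt1, Uhrf1 and Tet2, whose groups did not overlap on any of their probe sets. For Dnmt1 and Uhrf1, which have several windows, it is the one with the most CpG and the only one with a searched word. Dnmt1 and Uhrf1 are described as targets of E2F factors, which drive S phase genes. The sequences also let the CpG content of a methylation gene's own promoter be seen. The windows are those of RefSeq on GRCm38.p6, from 250 bases before to 50 bases after an annotated start, read 5′ to 3′ on the gene's strand. All 9 genes have at least 1 window, 16 in all. The words TTTCCCGC, TTTGGCGC, TTTCGCGC and TTTGCCGC were searched on both strands and are in capitals.
Dnmt1, chr9:20952574-20952873, minus strand: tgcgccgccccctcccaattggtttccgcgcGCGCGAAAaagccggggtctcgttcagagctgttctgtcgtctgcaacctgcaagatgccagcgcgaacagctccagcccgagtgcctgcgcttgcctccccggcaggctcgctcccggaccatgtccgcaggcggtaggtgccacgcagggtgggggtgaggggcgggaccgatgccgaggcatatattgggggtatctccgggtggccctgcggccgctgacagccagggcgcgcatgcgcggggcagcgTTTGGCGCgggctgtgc
Uhrf1, chr17:56304063-56304362, plus strand: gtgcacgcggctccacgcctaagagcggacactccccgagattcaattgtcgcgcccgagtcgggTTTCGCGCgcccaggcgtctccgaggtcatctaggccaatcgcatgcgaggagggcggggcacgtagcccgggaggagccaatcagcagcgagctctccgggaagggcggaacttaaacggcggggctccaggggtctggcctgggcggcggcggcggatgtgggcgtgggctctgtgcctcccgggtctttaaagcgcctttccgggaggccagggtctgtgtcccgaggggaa
Tet2, chr3:133544341-133544640, minus strand: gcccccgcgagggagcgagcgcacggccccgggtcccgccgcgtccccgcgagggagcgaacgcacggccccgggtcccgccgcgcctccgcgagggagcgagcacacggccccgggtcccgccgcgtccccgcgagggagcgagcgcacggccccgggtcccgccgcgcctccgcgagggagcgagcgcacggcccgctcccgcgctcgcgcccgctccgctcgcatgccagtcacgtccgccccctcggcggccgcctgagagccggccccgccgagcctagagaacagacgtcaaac
The Dnmt1 window shown held TTTCGCGC on the opposite strand, written GCGCGAAA above and starting at base 32, and TTTGGCGC starting at base 284. The word at base 284 lies after the annotated start of that window. The Uhrf1 window shown held TTTCGCGC at base 66, and the Tet2 window held none of these words. Windows at other annotated starts, all upstream of those shown, with 12 and 2 CpG for Dnmt1 and 12 for Uhrf1, held none either. The same was true of the Tet1 window, with 17 CpG. A word occurred in 2 of the 16 member windows, in 2.26% of all 32851 windows and in 5.06% of the 3837 windows with at least 30 CpG. The Dnmt1 and Uhrf1 windows shown each held 33 CpG, a number that 8.56% of all windows reach, and the Tet2 window 57, reached by 0.152%. A matching word is a description of these letters and not a measured binding site.

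The de novo enzymes follow. Dnmt3a was read by 5 probe sets, and all 5 mean differences were below 0, from -0.25 to -0.05, yet on each the groups overlapped. On the brightest, 1423064_at, the RFC1+/+ embryos measured 8.86, 8.98 and 9.27 and the RFC1-/- embryos 8.98, 8.96 and 8.98. The RFC1-/- embryos were nearly alike and lay inside the RFC1+/+ range (difference -0.06, 95% interval -0.33 to 0.21, adjusted p = 0.890 in limma). The probe set with the most negative mean, 1423066_at, measured 9.32, 8.36 and 8.37 in RFC1+/+ and 8.69, 8.34 and 8.26 in RFC1-/- embryos. Here a single embryo, RFC1+/+ of litter 1, was high, and litters 2 and 3 differed by only -0.01 and -0.12 (mean -0.25, 95% interval -0.58 to 0.07, adjusted p = 0.481 in limma). The same embryo was also the highest on 1460324_at (8.44, against 8.07 to 8.16 in the other 5) and on 1423065_at (8.42, against 7.78 to 8.14). These 3 probe sets correlated at 0.82 to 0.92 with each other over the 6 arrays, and at -0.51 to -0.71 with the brightest one. Which transcripts each probe set reads was not analysed here.

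Dnmt3b, the main de novo enzyme of the postimplantation embryo, was bright and higher in each RFC1-/- embryo than in its littermate. On 1449052_a_at the RFC1+/+ embryos measured 10.46, 10.50 and 10.63 and the RFC1-/- embryos 10.73, 10.62 and 10.67. The groups overlapped by 0.01, and the litter differences were 0.27, 0.12 and 0.03. The mean difference was 0.14 (standard error 0.10, 95% interval -0.10 to 0.38, adjusted p = 0.625 in limma). On 1418351_a_at the values were 8.50, 8.31 and 8.34 against 8.61, 8.46 and 8.63, with a mean difference of 0.18 (95% interval -0.05 to 0.41, adjusted p = 0.477 in limma). Neither probe set passed the test.

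Dnmt3l, the cofactor without catalytic activity, was dim. Its probe set measured 4.50, 4.52 and 4.43 in RFC1+/+ and 4.48, 4.51 and 4.29 in RFC1-/- embryos, under the level of silent receptor genes in all 6. No level can be given for it beyond that.

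**Figure D2:**
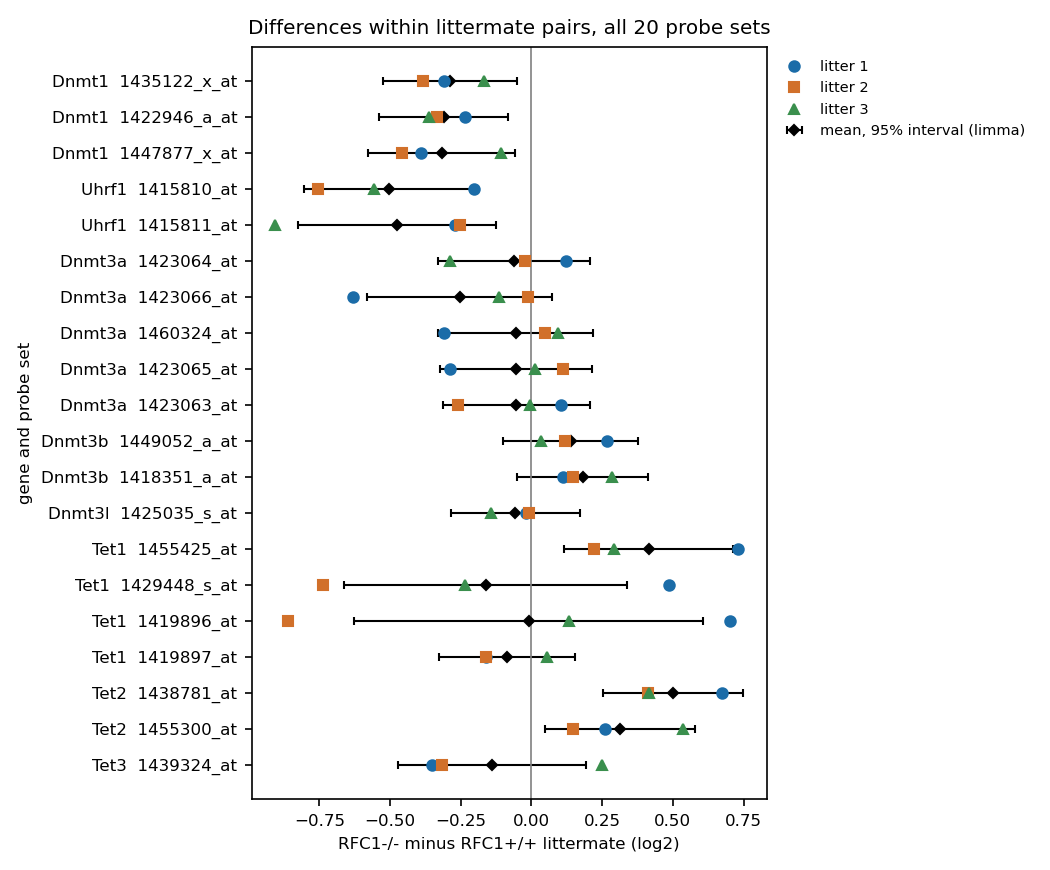
Log2 difference, RFC1-/- minus RFC1+/+, of each of the 20 member probe sets, with coloured marks for the 3 litters and a black diamond and line for the mean and its 95% interval in limma. The intervals of Dnmt1, Uhrf1, Tet2 and the brightest Tet1 probe set leave out 0, and those of Dnmt3a, Dnmt3b, Dnmt3l, Tet3 and the other Tet1 probe sets include it.

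Among the enzymes that remove methylation, Tet2 was the single gene past the threshold. On 1438781_at the RFC1+/+ embryos measured 7.41, 7.30 and 7.55 and the RFC1-/- embryos 8.08, 7.71 and 7.96. The RFC1-/- embryos were all above, with 0.16 between the groups, and the litters differed by 0.67, 0.41 and 0.41. Tet2 rose 1.41-fold in RFC1-/- embryos, a log2 difference of 0.50 with a standard error of 0.11 (adjusted p = 0.0469 in limma over all genes). In the fit of all probe sets its adjusted p was 0.0610. The second probe set, 1455300_at, measured 5.90, 6.00 and 5.59 against 6.16, 6.14 and 6.13, and again the groups did not overlap (difference 0.31, standard error 0.11, adjusted p = 0.240 in limma). The call of Tet2 was lost, among other settings, without litter 1 (adjusted p = 0.328 in limma), without litter 2 (0.102) and with the mean of its probe sets (0.0593). In the same-sex litter 1, Tet2 differed by 0.67 and 0.26.

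Tet1, an enzyme of pluripotent and germ cells, gave values that depended on the probe set. On the brightest, 1455425_at, the RFC1+/+ embryos measured 8.49, 8.62 and 8.85 and the RFC1-/- embryos 9.22, 8.84 and 9.14. Each RFC1-/- embryo was above its littermate, by 0.73, 0.22 and 0.29, and the groups overlapped by 0.01. The mean difference was 0.41 (standard error 0.13, 95% interval 0.11 to 0.71, adjusted p = 0.171 in limma). On 1429448_s_at the values were 6.82, 7.48 and 6.75 against 7.30, 6.75 and 6.52, with litter differences of 0.49, -0.74 and -0.23. On 1419896_at, at the level of silent receptor genes, they were 4.09, 4.83 and 4.11 against 4.80, 3.97 and 4.24. Both were highest in RFC1-/- litter 1 and RFC1+/+ litter 2, embryos that share neither genotype, litter nor sex, and their correlation over the 6 arrays was 0.88. The fourth, 1419897_at, was also dim and differed by -0.09.

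**Figure D3:**
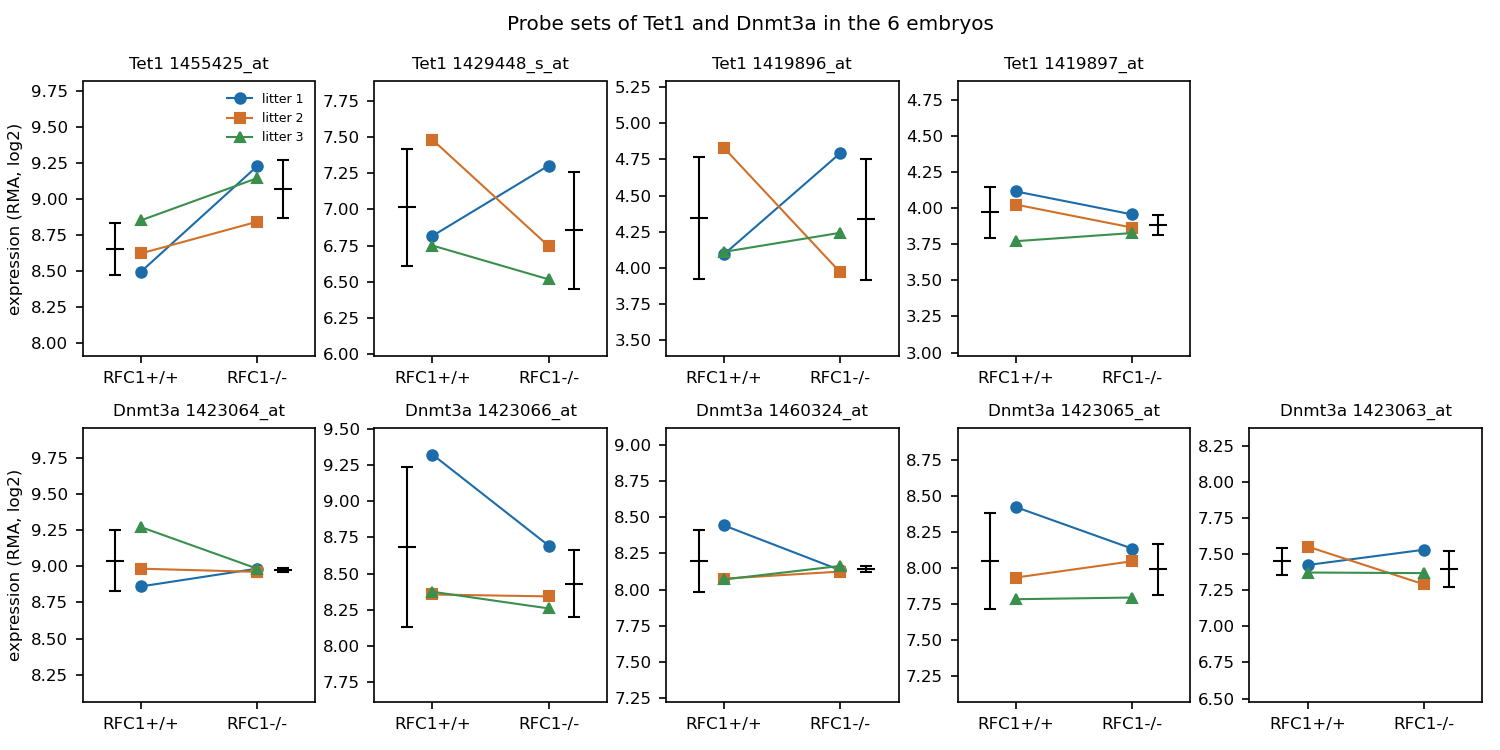
Log2 expression on each of the 4 Tet1 and 5 Dnmt3a probe sets in RFC1+/+ and RFC1-/- embryos; coloured lines join littermates and black bars give the mean and SD of 3 embryos. The probe sets of a gene differ in the embryo that is highest: 1455425_at is highest in RFC1-/- litter 1 at 9.22, 1429448_s_at in RFC1+/+ litter 2 at 7.48, and 1423066_at stands out in RFC1+/+ litter 1 at 9.32.

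Tet3, the oxidase of the zygote that is also expressed in neural tissue, measured 5.14, 5.21 and 4.64 in RFC1+/+ and 4.79, 4.89 and 4.89 in RFC1-/- embryos. These values are at the level of silent receptor genes, litter 3 ran opposite to litters 1 and 2, and the adjusted p was 0.754 in limma. The probe sets that Tdg shares with its pseudogenes were among the bright ones of the array. On 1416790_a_at they measured 12.09, 12.18 and 11.91 against 12.08, 12.05 and 12.02, and the 3 shared probe sets differed by -0.01, -0.06 and -0.05. Signals of Tdg and of its pseudogenes cannot be told apart there.

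Members could be set beside each other through their levels over the 6 arrays, which share the genotype difference. On the brightest probe sets the correlation was 0.86 between Dnmt1 and Uhrf1, 0.97 between Dnmt3b and Tet1 and 0.95 between Tet1 and Tet2. Dnmt1 ran opposite to Tet2 (-0.91) and to Dnmt3b (-0.89). The genes most like Tet2 over the 6 arrays were Cpn1, a plasma carboxypeptidase subunit made in liver (0.996), Tom1l1, an endosomal sorting adaptor (0.994), and Slc37a4, the glucose-6-phosphate transporter of gluconeogenic tissue (0.992). In all, 160 genes other than Tet2 exceeded 0.95, so the likeness is not particular to these 3. Cpn1 measured 5.50, 5.28 and 5.92 in RFC1+/+ and 6.96, 6.28 and 6.71 in RFC1-/- embryos.

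Markers of visceral endoderm, primitive erythroid cells and neural progenitors moved with the genotype to a far greater extent than the members did. All 18 measured markers of visceral endoderm, an extraembryonic epithelium, were higher in RFC1-/- embryos, with a median difference of 3.63 and a mean level of 6.55 to 7.59 in RFC1+/+ and 9.26 to 10.77 in RFC1-/- embryos. The paper reports several genes of this list, among them Apoa1 and Cubn, as raised on these same arrays. The count of 18 is therefore not independent of that report. Among 13 markers of primitive erythroid cells 9 were lower and none higher (median -2.19, mean level 7.96 to 8.58 against 5.65 to 6.28). Neural progenitor markers were lower for 13 of 16 (median -1.19), and cardiac muscle markers higher for 9 of 12 (median 0.64); all markers of visceral endoderm, neural progenitors and cardiac muscle were above the level of silent receptor genes. Somite markers were lower for 5 of 12 and higher for 1. Among 13 epiblast and pluripotency genes 1 was higher, Tdgf1 (1.26), with a list median of 0.17, and among 10 measured trophoblast genes 1 was higher. Of 9 germ cell genes 3 were higher, with a median of 0.50. At or under the level of silent receptor genes were 6 of the epiblast, 3 of the trophoblast and 3 of the germ cell genes. The same held for 2 primitive erythroid and 3 somite markers. The paper describes RFC1-/- embryos at this folate dose as developmentally delayed by mid-gestation. It also states that extraembryonic membranes were collected for genotyping. By immunohistochemistry it describes cubilin protein, encoded by the marker gene Cubn, as raised in cranial mesenchyme and heart muscle of RFC1-/- embryos. Whether embryos differed in stage, or kept some membrane, was not tested. In RNA of whole embryos, fewer cells of a type and less RNA per cell cannot be told apart. The part of these marker shifts in the values of Tet2, Tet1, Dnmt1 and Uhrf1 was not tested.

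Partners and pathway genes were taken from lists drawn up by their function. Of 68 measured genes in 4 lists, 5 passed the test, 3 higher and 2 lower, beside 5.32% of all genes. Among 25 readers and partners of DNA methylation 1 passed, Cxxc4, which holds a CXXC domain that binds unmethylated CpG and was 1.53-fold lower. It measured 8.76, 8.80 and 8.73 in RFC1+/+ and 8.16, 8.35 and 7.94 in RFC1-/- embryos, a gap of 0.38 (difference -0.61, standard error 0.11, adjusted p = 0.0276 in limma). Its other 2 probe sets differed by 0.09 and 0.14, and with the mean of its probe sets the adjusted p was 0.560. Without litter 1 it was 0.137. Dppa3, a germ cell and oocyte protein that protects methylation in the zygote, was higher in all 3 litters without overlap (difference 0.50) and did not pass (adjusted p = 0.0591 in limma). Zbtb33, of the same list, was lower in all 3 litters without overlap (difference -0.30) and did not pass (adjusted p = 0.173 in limma). In all 3 litters, 4 genes of the list were lower and 2 higher, beside 19.7% and 15.8% of all probe sets. The median of the list was -0.06.

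Among 17 demethylation and base excision repair genes 1 was higher and 1 lower, with a median of -0.03. Idh1, the cytosolic isocitrate dehydrogenase that makes 2-oxoglutarate, was 1.72-fold lower, at 11.19, 11.18 and 11.24 in RFC1+/+ and 10.53, 10.44 and 10.30 in RFC1-/- embryos. The groups were 0.64 apart (difference -0.78, standard error 0.11, adjusted p = 0.0122 in limma), and its other probe set differed by -0.72. This call held under all alternatives run (adjusted p from 0.00339 to 0.0443). Idh2, another isocitrate dehydrogenase of the list, went the other way. It was higher in all 3 litters without overlap (difference 0.31) and did not pass (adjusted p = 0.269 in limma). Smug1 (-0.43) and Polb (-0.32) were lower in all 3 litters without overlap and did not pass (adjusted p = 0.0892 and 0.162 in limma). In all 3 litters, 3 genes of the list were lower and 4 higher, beside 19.7% and 15.8% of all probe sets. Gadd45b, a stress-induced protein described in DNA demethylation, was 1.57-fold higher, at 6.22, 6.22 and 6.36 against 6.92, 6.94 and 6.88 (difference 0.65, standard error 0.10, adjusted p = 0.0187 in limma). The adjusted p of Gadd45b was 0.121 without litter 1, 0.0661 without litter 2 and 0.118 with the mean of its 3 probe sets.

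In the methionine and S-adenosylmethionine cycle, which supplies the methyl group, 1 of 10 measured genes passed. Bhmt2, a betaine-homocysteine methyltransferase family member that uses S-methylmethionine, was at 3.71, 3.37 and 3.82 in RFC1+/+ and 5.06, 4.53 and 5.30 in RFC1-/- embryos (difference 1.33, standard error 0.11, adjusted p = 0.00414 in limma). Of its 6 values, 5 were under the level of silent receptor genes. The folate-dependent methionine synthase Mtr was lower in all 3 litters without overlap (-0.22). The S-adenosylhomocysteine hydrolase Ahcy differed by 0.01, and neither gene passed. Mat2b (0.29) and Mtrr (0.16), of the same list, were higher in all 3 litters without overlap. They did not pass either (adjusted p = 0.243 and 0.488 in limma). In this list 4 genes were lower and 3 higher in all 3 litters, beside 19.7% and 15.8% of all probe sets. The RFC1-/- embryos lay all below on 11.5% and all above on 9.81% of all probe sets.

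A further list held germline genes that promoter methylation is known to silence in somatic cells. Of 16 genes 1 passed, Rhox5, an X-linked homeobox gene also expressed in extraembryonic lineages, at 8.48, 7.34 and 8.13 in RFC1+/+ and 11.33, 10.58 and 12.21 in RFC1-/- embryos. It was 10.5-fold higher (difference 3.39, adjusted p = 0.00301 in limma). The list median was 0.03, and 14 of the 16 genes were at or under the level of silent receptor genes in the mean of the 6 embryos. The other gene above it, Tex19.1, a germ cell gene also expressed in placenta, measured 5.03, 5.03 and 5.34 in RFC1+/+ and 5.52, 5.37 and 5.88 in RFC1-/- embryos. The groups did not overlap, and the difference of 0.46 did not pass (adjusted p = 0.0508 in limma).

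**Figure D4:**
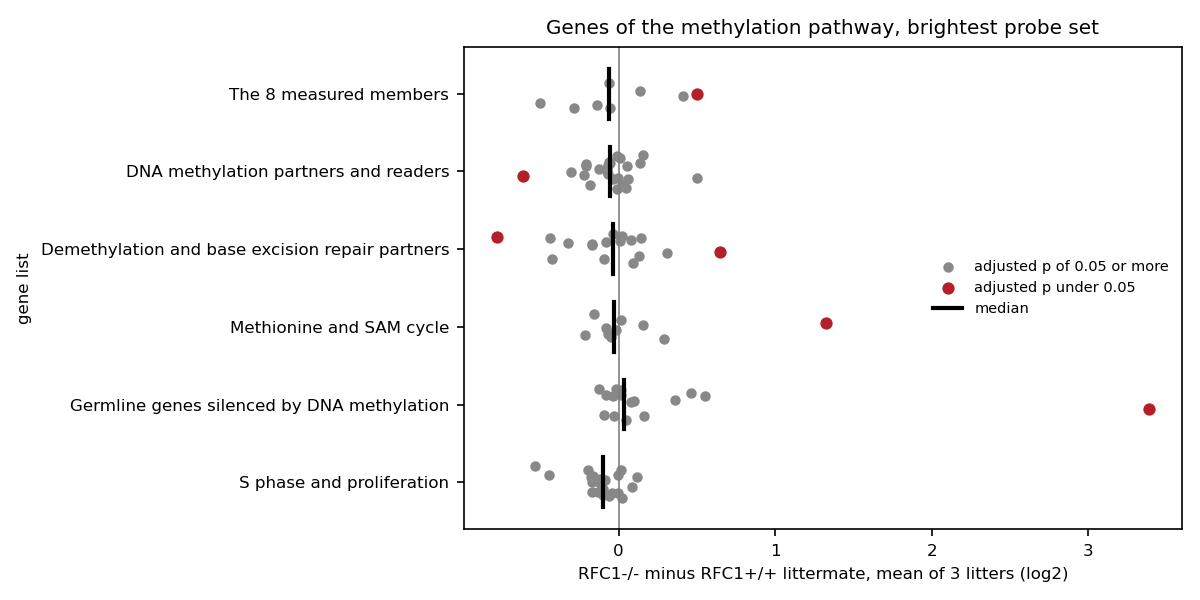
Log2 difference, RFC1-/- minus RFC1+/+ as the mean of 3 litters, of every measured gene among the members, in the 4 pathway lists and in the S phase list, with the list median as a black bar and genes past an adjusted p of 0.05 in red. The lists centre near 0, with medians from -0.10 (S phase) to 0.03 (germline genes), and Rhox5 at 3.39 lies farthest out.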

How the data were processed

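RNA of 6 whole embryos, 3 RFC1-/- and 3 RFC1+/+, was hybridized to Affymetrix mouse arrays. The authors deposited log2 values made by RMA (background correction, quantile normalization, median polish), which the submitters' processing notes also name, without a version. Arrays give no read depth, so their number limits the precision. Groups and litters came from the sample labels.

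RFC1-/- minus RFC1+/+ was fitted with limma 3.58.1 in R 4.3.3, with the litter as a block, and p-values were adjusted by Benjamini-Hochberg over 45101 probe sets (members) or 18194 genes, each on its brightest single-symbol probe set (genes and lists), at 0.05. Of the probe sets, 34958 carried 1 symbol, 932 several and 9211 none. The litter pairing comes from the study's design, and littermates' deviations correlated at 0.13, -0.04 and -0.17 for litters 1, 2 and 3. With this block, p-values measure how the differences within litters vary over the 3 pairs. The variance of each probe set or gene is moderated in limma by those of all others. Scripts were tested on simulated data.

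All members were named, with Slc19a1, the pathway genes past the threshold (up to 4 per list), at most 2 genes per marker list and the 3 genes most like Tet2. Further genes of the lists (Pcna, Hells, Gins1, Tyms, Mtr, Ahcy, Mat2b, Mtrr, Idh2, Smug1, Polb, Zbtb33, Tex19.1 and Dppa3) were chosen after their values were seen. Members and lists were chosen with earlier results of these data known. Alternatives were no block, a variance trend, a second quantile normalization, median centring, dim probe sets left out, the methods' random-variance test and 1.5-fold variation filter, all probe sets of a gene averaged, each litter left out and, added after the data were seen, embryo sex. The number of unused value columns was 0. Tables and plots used Python 3.11.15, pandas 2.3.3, numpy 2.4.6 and matplotlib 3.10.9.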

Additional observations from a re-analysis of the deposited data

How the results depend on the processing

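Member probe sets past the threshold numbered 0 and stayed at 0 under every alternative except 2, in which 1 passed: with an intensity trend (Uhrf1, adjusted p = 0.0466 in limma) and with embryo sex as a covariate, added after the data were seen (Tet2, 0.0455). Member genes numbered 1, Tet2, and 0 with median centring (adjusted p = 0.0651 in limma), with the random-variance paired test (0.0511) and with all probe sets of a gene averaged (0.0593). With the intensity trend Tet2 was lost (0.0653) and Uhrf1 passed (0.0329). With 1 litter left out the count ranged from 0 to 1. At an unadjusted p of 0.05 in limma the count of member probe sets was 8, and 5 without litter 1. Among these 5 was Tet1 1429448_s_at (difference -0.49), which was not among the 8. The variation filter kept 5 member probe sets, and of the 8 only those of Uhrf1. Of the kept ones 0 reached that level, beside 30% of all probe sets kept. The 5 pathway genes, beside 5.32% of all genes, became 3 to 6 with 1 litter left out, beside 1.95% to 6.59% of all genes. With embryo sex as a covariate they became 9, beside 9.87% of all genes. The 60 cell type markers became 40 to 60 with 1 litter left out. Without the replicate block 0 member probe sets, 1 member gene, 6 pathway genes and 56 markers passed, beside 3.08% of all probe sets and 6.35% of all genes. The pairing changed no call of a member. Differences that changed sign, none of them past the threshold, were those of Tet1 1419896_at (0.0065 after a second quantile normalization), and, with 1 litter left out, of Tet1 1419896_at (-0.36 to 0.42), Tet1 1429448_s_at (-0.49 to 0.13) and Dnmt3a 1423063_at (-0.13 to 0.051), 1423064_at (-0.15 to 0.051, as probe set and as gene), 1423065_at (-0.14 to 0.062) and 1460324_at (-0.13 to 0.071). The cause of these changes was not tested. With 3 embryos in each group, and with 4 member probe sets at the level of silent receptor genes, small differences of Dnmt3l and Tet3 were not detectable.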
